A study of Mus musculus with 8 samples.

Results

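Bile acid synthesis and transport in regenerating mouse liver was followed through 10 genes: the synthesis enzymes Cyp7a1, Cyp8b1, Cyp27a1 and Cyp7b1, the conjugating enzymes Slc27a5 and Baat, the transporters Slc10a1, Abcb11 and Abcb4, and the feedback regulator Nr0b2. They were chosen by name for their place in the pathway, and all 10 were found among the 19055 genes of the deposited table. The 8 libraries came from livers of mice aged 8 to 9 weeks, taken 48 hours after partial hepatectomy. All mice had received tamoxifen for 1 week, and an analgesic and isoflurane for the surgery. The 3 control livers, labelled URI(+/+)Hep, came from wild-type littermates. The 5 livers labelled URI(+/D)Hep carried a hepatocyte deletion of URI, the prefoldin-like protein encoded by Uri1, made with a creERT2 line driven by serum albumin. The other liver cells are not targeted by that driver, and the notation keeps a wild-type allele. The labels do not give the sex of the mice, say whether animals were pooled, or state whether the controls carried the Cre. The comparison asks whether these genes differ between the genotypes while the liver regrows.

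Bile acids are made from cholesterol in hepatocytes, by a classical pathway that Cyp7a1 opens and an alternative pathway that Cyp27a1 and Cyp7b1 open. They are conjugated, exported into bile with phospholipid, and taken up again from portal blood. Bile acids activate the nuclear receptor FXR, encoded by Nr1h4, which raises Nr0b2 and Abcb11 and lowers Cyp7a1. After partial hepatectomy the remaining liver receives the returning bile acids of the whole body, and repression of Cyp7a1 is a known part of regeneration.

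Depth ranged from 3838674 to 4800694 reads per library, and values below are normalized reads, meaning counts scaled by the size factor of their library. A count of 3 reads corresponded to between 2.65 and 3.60 normalized reads. Uri1 itself stood at 310 to 468 in the controls and at 328 to 437 in the other group, so the counted 3′ ends gave no check of the labels. A 3′ tag outside the deleted part need not show a deletion, but whether that holds here was not tested. Xist and transcripts of Y-linked genes were unevenly spread. Controls 1 and 2 held Y-linked reads with Xist at 9.59 or less, URI(+/D)Hep 1 held Xist with Y-linked reads summing to 3.54, and control 3 and URI(+/D)Hep 2 to 5 held both. Markers of hepatocytes were abundant in all libraries, with all 8 of the list tested and a summed level of 72748 to 110361 in the controls and 67456 to 74894 in the other group. Of the 8, 2 had group ranges that did not overlap, where 13.4% of all genes tested did not. In URI(+/D)Hep, Cps1 was the higher and Trf the lower of these. The labels name the cell type as epithelial, but markers of endothelial, Kupffer and stellate cells were also measured in every library. RNA came from liver tissue, so fewer cells of a type and less RNA per cell cannot be told apart.

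For none of the 10 genes did the difference between the genotypes pass the test. With limma on log2(normalized reads + 1), 0 of 10 passed an adjusted p of 0.05 in either direction, where 0.0146% of the 13704 genes tested passed, all of them lower. Without adjustment 1 gene, Abcb11, had p under 0.05 and was higher, against 8.35% of all genes in that direction, and 0 were lower, against 9.33%. The ranges of the groups overlapped for all 10 genes, whereas they did not overlap for 13.4% of the genes tested, 6.13% with URI(+/D)Hep higher and 7.3% with it lower. The log2 fold change was positive for 9 of the 10, with a median of 0.12, beside 49.8% positive and a median of -0.00 over all genes tested. On recovered reads edgeR called 0 of the 10, beside 0.0219% of all genes tested, and 0 had an unadjusted p under 0.05, beside 17.7%. DESeq2 called 0 of the 9 to which it gave an adjusted p, beside 4.97% of all such genes, and 1 had an unadjusted p under 0.05, beside 17.1%. All 10 passed the filter on low values, Cyp8b1 with only 3 libraries at or above the minimum of 10.

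**Figure D1:**
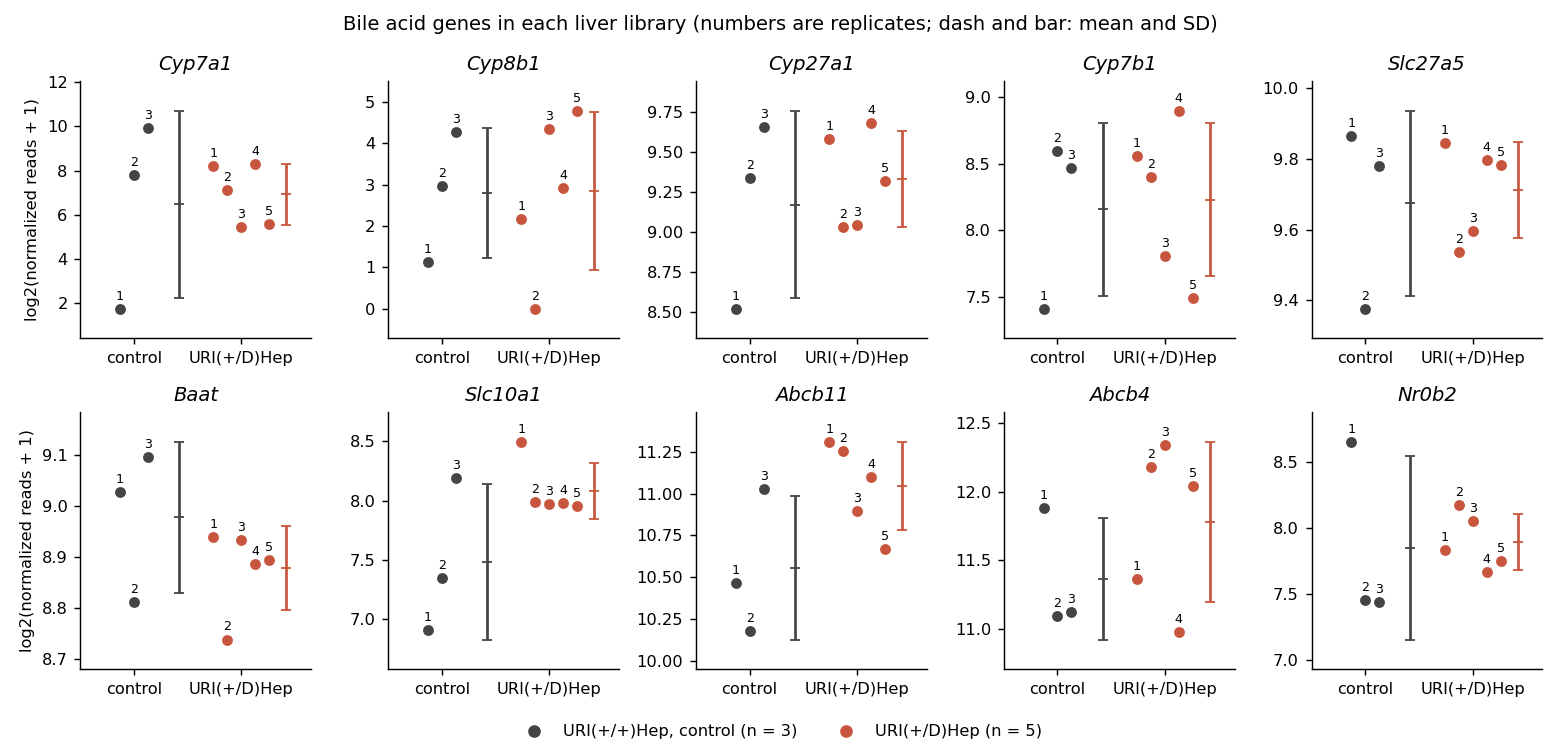
Level of each gene, as log2(normalized reads + 1) on the vertical axis, in the 3 control libraries and the 5 libraries labelled URI(+/D)Hep, numbered by replicate, with the mean and SD of each group. The groups overlap in every panel, and the vertical scale differs between panels: Cyp7a1 runs from 2.40 to 958 normalized reads while Baat runs from 426 to 546.

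Cyp7a1, the rate-limiting enzyme of the classical pathway, varied the most of the 10. Its level was 2.40, 219.6 and 958 normalized reads in controls 1 to 3, against 299, 139, 42.5, 311 and 47.5 in URI(+/D)Hep 1 to 5. The controls held both the lowest and the highest library, and all 5 libraries of the other group lay between them. Control 1 had 2 reads of the gene, with an exact Poisson 95% interval of 0.290 to 8.66 normalized reads, against 893 reads in control 3, with an interval of 896 to 1023. These intervals cover counting error only, and no source used here says whether a value counts reads or molecules. By the same intervals the neighbours URI(+/D)Hep 3 and 5, and URI(+/D)Hep 1 and 4, could not be ordered. Within groups the SD of Cyp7a1 was 2.68 on the log2 scale, larger than that of 99.9% of the genes tested, whose median was 0.28.

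The group difference of Cyp7a1 had no settled direction. The group means were 393 ± 501 (SD, n = 3) and 168 ± 131 (SD, n = 5), lower in URI(+/D)Hep, while the fitted log2 fold change was 0.45, higher in URI(+/D)Hep (SE 1.59, 95% CI from -3.14 to 4.05, adjusted p by limma 0.91). The interval spans 0.113- to 16.5-fold of the control. Without control 1 the log2 fold change was -1.91, the only change of sign on leaving out 1 library. Without control 3 it kept its sign and was 2.16. On recovered reads it was -1.23 in both edgeR and DESeq2. None of these differences passed the threshold.

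Cyp27a1, which opens the alternative pathway in mitochondria, varied less. Its level was 367, 645 and 807 in the control libraries, against 765, 523, 528, 821 and 639 in URI(+/D)Hep 1 to 5. Control 1 was again the lowest library, and only URI(+/D)Hep 4 lay above control 3. The log2 fold change was 0.16 (SE 0.26, adjusted p by limma 0.784), and -0.16 without control 1.

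Cyp7b1, the oxysterol hydroxylase that follows Cyp27a1, stood at 169, 386 and 353 in the controls and at 377, 336, 222, 476 and 179 in URI(+/D)Hep 1 to 5. Control 1 and URI(+/D)Hep 5 were low together and URI(+/D)Hep 4 was the highest. The log2 fold change was 0.07 (SE 0.37, adjusted p by limma 0.94). It turned negative without control 1 (-0.30), URI(+/D)Hep 1 (-0.011) or URI(+/D)Hep 4 (-0.095).

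Cyp8b1, the sterol hydroxylase that directs synthesis toward cholic acid, rested on 0 to 27 reads per library. It stood at 1.20, 6.89 and 18.2 in the controls and at 3.54, 0, 19.3, 6.56 and 26.7 in URI(+/D)Hep 1 to 5, from counts of 1, 7, 17, 4, 0, 20, 7 and 27 reads. The count of 0 in URI(+/D)Hep 2 allows up to 2.78 normalized reads, taking 3 reads as the limit of a count of 0. Control 3 and URI(+/D)Hep 3 and 5 were the 3 libraries above 10, both levels occurred in both groups, and the difference did not pass the test (log2 fold change 0.05, SE 1.11, adjusted p by limma 0.983, and -0.78 without control 1). Its order did not follow that of Cyp7a1: URI(+/D)Hep 5 was the highest for Cyp8b1 and the third lowest for Cyp7a1.

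The conjugating enzymes had the smallest within-group spread of the 10. Slc27a5, the ligase that activates bile acids with coenzyme A, stood at 932, 664 and 879 in the controls and at 918, 742, 773, 888 and 880.2 in URI(+/D)Hep 1 to 5. Baat, which joins the activated bile acid to taurine or glycine, stood at 520.5, 448 and 546 in the controls and at 489.7, 426, 488, 472 and 475 in URI(+/D)Hep 1 to 5. For Slc27a5 all 5 lay within the range of the controls. For Baat controls 1 and 3 lay above all 5, and URI(+/D)Hep 2 lay below every control. Their log2 fold changes were 0.04 (95% CI from -0.27 to 0.34) and -0.10 (95% CI from -0.33 to 0.13), the narrowest intervals of the 10, which bound Slc27a5 between 0.831- and 1.27-fold and Baat between 0.796- and 1.09-fold of the control. Without control 2 the log2 fold change of Slc27a5 was -0.11. The within-group SD of Baat, 0.11 on the log2 scale, was larger than that of only 5.95% of the genes tested, against 25.9% for Slc27a5.

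The 3 transporters had higher means in the libraries labelled URI(+/D)Hep, without a call. Slc10a1, the sodium-dependent carrier that takes bile acids up from blood, stood at 119, 161 and 292 in the controls and at 361, 253, 249, 252 and 247 in URI(+/D)Hep 1 to 5. All 5 lay above controls 1 and 2, but only URI(+/D)Hep 1 lay above control 3, and the other 4 fell within a narrow band. The means were 191 ± 90.2 (SD, n = 3) and 272 ± 49.4 (SD, n = 5) (log2 fold change 0.60, SE 0.27, 95% CI from -0.00 to 1.20, adjusted p by limma 0.284). It was 0.31 without control 1 and 0.95 without control 3.

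Abcb11, the bile salt export pump of the canalicular membrane, stood at 1412, 1159 and 2083 in the controls and at 2540.4, 2448, 1907, 2189 and 1629 in URI(+/D)Hep 1 to 5. Again all 5 lay above controls 1 and 2, and 3 of 5 above control 3. The means were 1551 ± 478 (SD, n = 3) and 2143 ± 379 (SD, n = 5) (log2 fold change 0.49, SE 0.21, 95% CI from 0.02 to 0.96, unadjusted p = 0.044, adjusted p by limma 0.269). For both genes, controls 1 and 2 were also the libraries almost without Xist. In the fit of the 5 libraries that held both Xist and Y-linked reads, with control 3 as the 1 control, the log2 fold change was -0.22 for Slc10a1 and -0.045 for Abcb11. With the share of Y-linked reads as a covariate it was 0.23 and 0.25. For Abcb11 it was 0.30 without control 2 and 0.72 without control 3. Beside these, the 7 endothelial markers summed to 1605 to 2054 in the controls and 2202 to 2399.8 in the other group, without overlap. Taken singly, only 2 of the 7, Stab2 and Tek, had ranges that did not overlap, where 13.4% of all genes tested did not. The 6 Kupffer cell markers summed to 1745 to 3584 and 2711 to 4688, and the 7 stellate cell markers to 1535 to 1667 and 1513 to 1799. The 6 neutrophil markers summed to 541 to 1179 and 299 to 889, and all 6 were lower in the fit, by a median log2 fold change of -0.80. Of these lists 0 markers were called by limma, none was at 0 in a library, and their part in the transporter values was not tested. With so few libraries, sex-linked transcripts and genotype cannot be told apart here.

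Abcb4, which moves phosphatidylcholine into bile, split the libraries another way. It stood at 3769, 2193 and 2235 in the controls and at 2636, 4635, 5195, 2017 and 4219 in URI(+/D)Hep 1 to 5. Control 1 and URI(+/D)Hep 2, 3 and 5 were high, while controls 2 and 3 and URI(+/D)Hep 1 and 4 were low, so both levels occurred in both groups (log2 fold change 0.41, SE 0.33, adjusted p by limma 0.546). The log2 fold change was 0.67 without control 1 and 0.27 without URI(+/D)Hep 3. Among the other pathway genes, chosen after their values were seen, the coactivator gene Ppargc1a was also highest in URI(+/D)Hep 5, 3 and 2, at 619, 548 and 487. It was lowest in control 3 and URI(+/D)Hep 4 and 1, at 121, 171 and 171. Controls 1 and 2 lay between, the higher of them at 380, so control 2 was not among the lowest as it was for Abcb4.

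**Figure D2:**
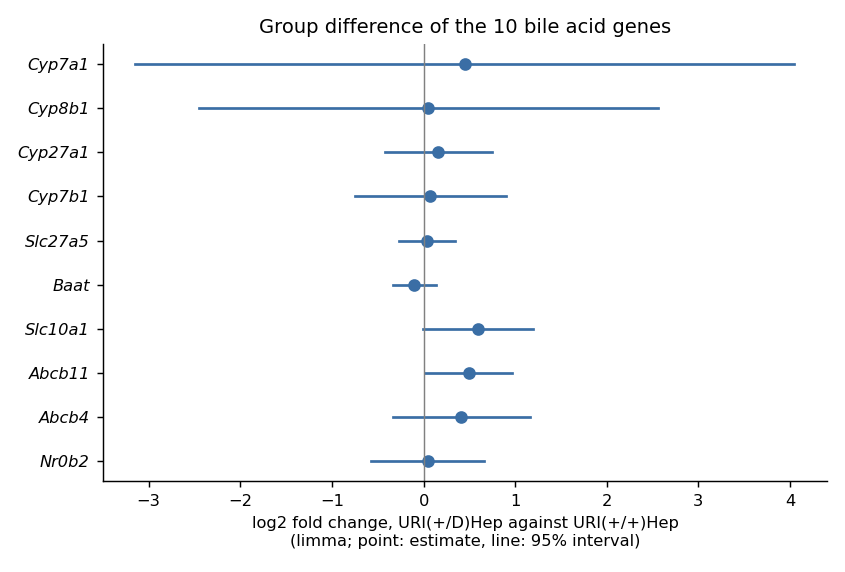
Log2 fold change of the 10 genes, URI(+/D)Hep against URI(+/+)Hep, with the estimate of limma as a point and its 95% interval as a line. The intervals of Cyp7a1 (-3.14 to 4.05) and Cyp8b1 (-2.45 to 2.56) are the widest, and among the 10 only that of Abcb11 lies wholly on one side of 0.

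Nr0b2 encodes SHP, a nuclear receptor without a DNA-binding domain that represses Cyp7a1 and Cyp8b1. It stood at 402, 174 and 173 in the controls and at 227, 288, 265, 202 and 214 in URI(+/D)Hep 1 to 5. As for Cyp7a1, the controls held both extremes and the other group lay between them, but in the opposite order: control 1 was the highest library, and controls 2 and 3 the lowest. The means were 249.6 ± 132 (SD, n = 3) and 239 ± 36.0 (SD, n = 5) (log2 fold change 0.05, SE 0.27, adjusted p by limma 0.949). The log2 fold change was 0.45 without control 1, -0.15 without control 2, -0.16 without control 3 and -0.024 without URI(+/D)Hep 2.

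Promoter sequences are shown for Nr0b2 and Cyp27a1, whose levels went in opposite directions over the libraries, and for Abcb11, the member with the smallest p. They are RefSeq sequences of build GRCm38.p6, an older build than the GRCm39 of the deposited table, from 250 bases before to 50 bases after the start of transcription, read along the gene. Of the 10 genes, 6 were found in that table, and Cyp7a1, Cyp7b1, Baat and Slc27a5 were not. Capitals mark matches, on either strand, to the nuclear receptor half-site AGGTCA, its extension TCAAGGTCA used by the NR5A family, which contains the former, the HNF1 half-site GTTAAT and the TATA box TATAAA. The Nr0b2 window lies at chr4:133553126-133553425 on the plus strand, the Cyp27a1 window at chr1:74713285-74713584 on the plus strand, and the Abcb11 window at chr2:69342567-69342866 on the minus strand.
Nr0b2: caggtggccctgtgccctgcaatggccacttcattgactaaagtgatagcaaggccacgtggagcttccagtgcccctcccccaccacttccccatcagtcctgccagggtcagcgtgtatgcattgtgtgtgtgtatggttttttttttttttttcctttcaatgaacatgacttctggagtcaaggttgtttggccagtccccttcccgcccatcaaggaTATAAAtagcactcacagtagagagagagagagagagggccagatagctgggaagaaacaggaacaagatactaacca
Cyp27a1: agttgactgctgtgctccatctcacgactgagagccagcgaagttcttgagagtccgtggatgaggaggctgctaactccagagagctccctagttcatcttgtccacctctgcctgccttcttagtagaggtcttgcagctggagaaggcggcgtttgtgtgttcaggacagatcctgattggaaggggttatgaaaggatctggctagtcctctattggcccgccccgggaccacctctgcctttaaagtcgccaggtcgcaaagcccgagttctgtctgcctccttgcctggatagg
Abcb11: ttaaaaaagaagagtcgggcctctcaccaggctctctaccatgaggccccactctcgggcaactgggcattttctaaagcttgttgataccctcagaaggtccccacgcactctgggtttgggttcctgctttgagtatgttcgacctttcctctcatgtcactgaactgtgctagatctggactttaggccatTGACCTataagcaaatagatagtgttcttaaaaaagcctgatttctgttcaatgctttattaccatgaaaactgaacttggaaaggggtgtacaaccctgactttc

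Nr0b2 held 1 match, a TATA box that begins 28 bases before the start, and Abcb11 held 1, a half-site on the opposite strand that begins 56 bases before it. The Cyp27a1 window held 0 matches. Of 32851 promoters of the same length, 13.6% held TATAAA, 16.3% AGGTCA, 7.1% GTTAAT and 0.423% TCAAGGTCA. Such matches describe letters only, and binding was not analysed here.

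By Pearson r the largest correlations from library to library were among the synthesis genes and Nr0b2, and none passed adjustment. Over the 8 libraries and on the log2 scale, Cyp7a1 and Cyp27a1 had a Pearson r of 0.91 (two-sided exact permutation p = 0.003) and a Spearman rho of 0.90 (exact permutation p = 0.00456). Cyp7a1 and Cyp7b1 had an r of 0.84 (exact permutation p = 0.00412, rho 0.81, exact permutation p = 0.0218). Cyp27a1 and Nr0b2 went in opposite directions, with an r of -0.89 (exact permutation p = 0.00476, rho -0.83, exact permutation p = 0.0154), as did Cyp7a1 and Nr0b2, with an r of -0.85 (exact permutation p = 0.00918, rho -0.79, exact permutation p = 0.0279). These are 4 of 45 pairs, and after Benjamini-Hochberg adjustment over the 45 none passed, the adjusted permutation p being 0.0714 for the first 3 and 0.103 for Cyp7a1 with Nr0b2. After subtracting the group means 2 pairs passed, Cyp7a1 with Cyp27a1 (r = 0.91) and Cyp27a1 with Nr0b2 (r = -0.92), each with an adjusted permutation p of 0.0402. That p is approximate, because values centred on their group means were permuted across the groups.

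Leaving out the 2 libraries farthest from the median of 1 gene of a pair changed these correlations unequally. Only 6 libraries then remained, so larger p-values partly reflect their number. Without controls 1 and 3, the libraries farthest from the median of Cyp7a1, the r of Cyp7a1 with Nr0b2 was -0.41 (exact permutation p = 0.404) and with Cyp27a1 0.69 (exact permutation p = 0.124), while with Cyp7b1 it was 0.95 (exact permutation p = 0.00833, adjusted p = 0.125). Without control 1 and URI(+/D)Hep 4 the r of Cyp27a1 with Nr0b2 was -0.75 (exact permutation p = 0.0917). Cyp8b1 did not follow Cyp7a1 (r = 0.24, rho 0.02, exact permutation p = 0.578 and 0.977). Slc10a1 and Abcb11 had an r of 0.82 (exact permutation p = 0.013, adjusted p = 0.117, rho 0.90, exact permutation p = 0.00456), a rho equal to that of Cyp7a1 with Cyp27a1, and the r was 0.58 without controls 1 and 2 (exact permutation p = 0.243). The labels give no batch within which to repeat these relations, and no set of libraries alike in sex-linked transcripts reached 6.

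Control 1 and URI(+/D)Hep 5, the lowest in Cyp7b1 and among the 3 lowest in Cyp7a1, were also the lowest in a transcript of dividing cells. Mki67, which proliferating cells express, was at 23.99, 282 and 468 in the controls and at 469, 333, 268, 586 and 49.5 in URI(+/D)Hep 1 to 5. Over the 8 libraries its r was 0.88 with Cyp7a1 (two-sided exact permutation p = 0.0029, adjusted over the 10 genes 0.0145, rho 0.88, exact permutation p = 0.00724) and 0.90 with Cyp7b1 (exact permutation p = 0.000719, adjusted 0.00719, rho 0.86, exact permutation p = 0.0107), while by rho the adjusted permutation p was 0.0536 for both. Without control 1 and URI(+/D)Hep 5, the libraries lowest in Mki67, the r was 0.71 for both (exact permutation p = 0.0931 and 0.0875, adjusted 0.233), so neither passed over the 6 other libraries. With the group means subtracted and all 8 libraries, the r was 0.89 for Cyp7a1 (exact permutation p = 0.000174, adjusted 0.00174) and 0.91 for Cyp7b1 (exact permutation p = 0.00169, adjusted 0.00843). For the other 8 genes the adjusted permutation p lay above the threshold, among them Nr0b2 with an r of -0.61 (exact permutation p = 0.103, rho -0.48, exact permutation p = 0.243). Mki67 was compared after its values were known.

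**Figure D3:**
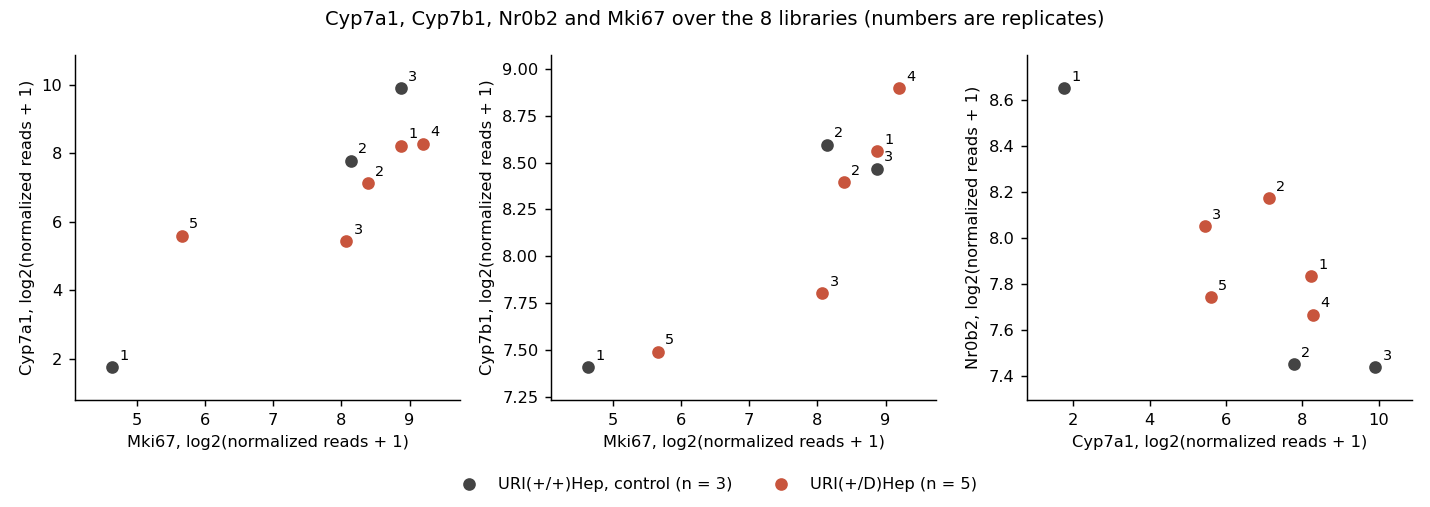
Levels in each library, numbered by replicate, as log2(normalized reads + 1) on both axes, for Mki67 against Cyp7a1, Mki67 against Cyp7b1 and Cyp7a1 against Nr0b2. Control 1 (Mki67 23.99, Cyp7a1 2.40, Nr0b2 402) lies at an extreme of each panel, and r is 0.88, 0.90 and -0.85.

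The genes whose pattern over the 8 libraries was most like a member were sought among 13703 others. For Cyp7a1 they were Hdhd3 (r = 0.987), Gm45727 (r = 0.985) and Ggt6 (r = 0.985). Gm45727 was low throughout, from 0 in control 1 to 24.7 in control 3, so its r rests on few reads. Hdhd3 stood at 29.98, 111 and 201 in the controls and at 148, 107, 69.6, 162 and 89.0 in URI(+/D)Hep 1 to 5, which is the order of Cyp7a1 library by library. For Cyp8b1 they were Sil1 (r = 0.970), Zfp518a (r = 0.952) and 3300002I08Rik (r = 0.945). For Nr0b2 they were Cped1 (r = 0.984), Gpx4-ps2 (r = 0.974), a pseudogene whose reads may be shared with its parent gene, and Klhl12 (r = 0.972). Each value is the top of a search over 8 points, which favours high correlations, and is given as a description.

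Other enzymes of bile acid synthesis were read from a list of 15 genes, of which 14 were in the table and 12 were tested. Of these, 0 were called in either direction, 9 had a positive and 3 a negative log2 fold change, and the median was 0.23. Over all genes tested 0.0146% were called, 49.8% were positive and the median was -0.00. With so few calls among all genes, 0 calls in a list says little about its genes. Cyp2a12 and Slc27a2 are named because they had the smallest p by limma in this list. Cyp2a12, a bile acid hydroxylase of the mouse, stood at 2797, 2318 and 2407 in the controls and at 1945, 2006, 2094, 1764 and 1765 in URI(+/D)Hep 1 to 5. All 5 lay below all 3 controls (log2 fold change -0.39, SE 0.11, adjusted p by limma 0.135, DESeq2 adjusted p = 0.0245). Slc27a2, the very long-chain acyl-CoA synthetase, stood at 669, 740.4 and 1006 against 1053, 1199, 1387, 962 and 1391 (log2 fold change 0.58, SE 0.17, adjusted p by limma 0.151). Only URI(+/D)Hep 4 lay within the range of the controls. Akr1c6, a hepatic ketosteroid reductase chosen after its values were seen, ran from 36.0 in control 1 and 372 in URI(+/D)Hep 5 to 2235 in control 3 and 2637 in URI(+/D)Hep 1.

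Of 16 other transporters, 16 were in the table and 15 were tested. Again 0 were called, beside 0.0146% of all genes tested. In this list 12 had a positive and 3 a negative log2 fold change, beside 49.8% positive over all genes tested, and the median was 0.29. Abcc2 and Abcg5 are named for having the smallest p by limma among these transporters. Abcc2, the canalicular exporter of organic anions and conjugated bile acids, stood at 2191, 2572 and 3720.5 in the controls and at 4451, 4582, 3612, 3646 and 3201 in URI(+/D)Hep 1 to 5 (log2 fold change 0.49, SE 0.19, adjusted p by limma 0.236). As for Abcb11, all 5 lay above controls 1 and 2, and control 3 lay among them. Abcg5, which with Abcg8 exports sterols into bile, stood at 212, 134 and 128 against 295, 237, 173, 216 and 202 (log2 fold change 0.52, SE 0.21, adjusted p by limma 0.252). Here control 1 lay among the libraries of the other group and controls 2 and 3 below them.

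Slc51a, a subunit of the basolateral bile acid exporter, had 0 reads in 7 libraries, which by the limit of 3 reads allows up to 3.60 normalized reads, and 339 normalized reads in URI(+/D)Hep 5, and was not tested because it missed the filter. It was singled out after its values were seen. Genes of the bile duct epithelium were high in the same library: Epcam stood at 525 against 7.96 to 29.96 elsewhere, Cftr at 283 against 9.66 to 33.8, and Krt19 at 65.3 against 0, in URI(+/D)Hep 1, to 5.91. The summed level of the 7 measured cholangiocyte markers was 1338 in URI(+/D)Hep 5 and 353 to 505 in the other libraries of its group, against 438 to 1846 in the controls, where Sox9 and Spp1 were high in controls 1 and 2. Their part in the values of the 10 genes was not tested. Slc51b, the partner subunit, was highest in control 1, at 200.3, and stood at 80.1 in URI(+/D)Hep 5. Without URI(+/D)Hep 5 the log2 fold changes of Slc10a1, Abcb11 and Abcb4 were 0.63, 0.58 and 0.35, beside 0.60, 0.49 and 0.41 with all 8 libraries.

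**Figure D4:**
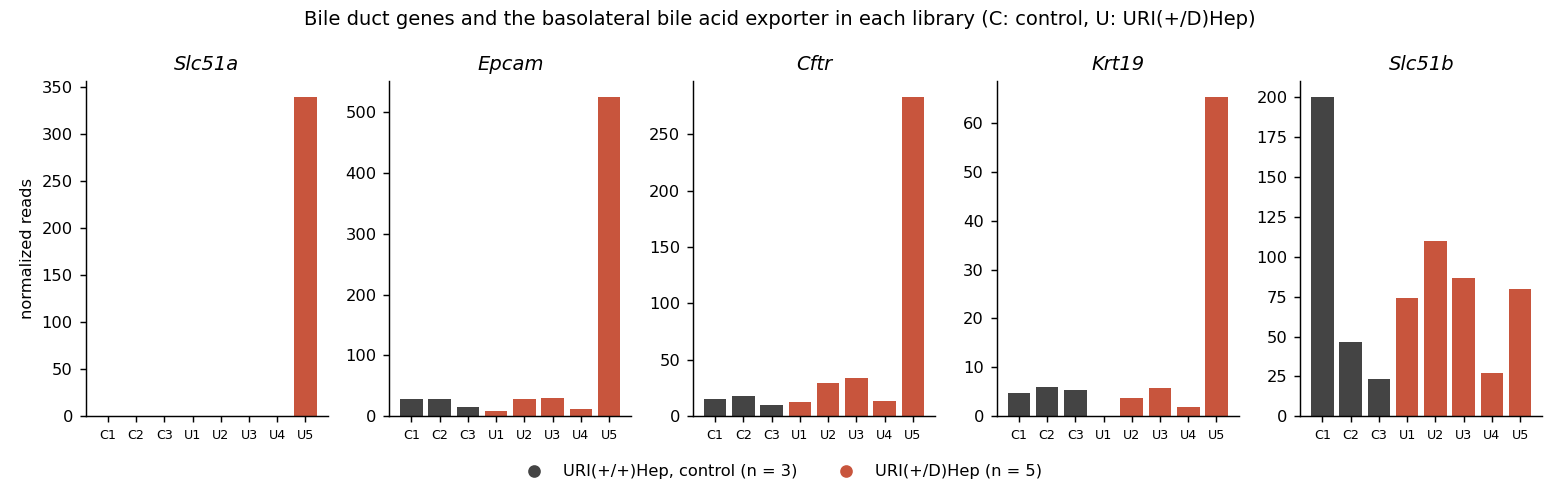
Normalized reads of Slc51a, Epcam, Cftr, Krt19 and Slc51b as bars, 1 for each control library (C) and each library labelled URI(+/D)Hep (U). URI(+/D)Hep 5 stands apart in the first 4 panels, with Slc51a at 339 against 0 in the other 7 libraries, and not in that of Slc51b.

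Of 16 other regulators, 15 were in the table and 14 were tested, with 0 called, 6 positive, 8 negative and a median log2 fold change of -0.03. Of all genes tested, 0.0146% were called and 49.8% were positive. Rxra and Fgfr4 are named for having the smallest p by limma among these regulators. Rxra, the partner of FXR in binding DNA, stood at 1581, 1444 and 1782 in the controls and at 1234, 1054, 1298, 1241 and 1267 in URI(+/D)Hep 1 to 5. All 5 lay below all 3 controls (log2 fold change -0.39, SE 0.11, adjusted p by limma 0.136, DESeq2 adjusted p = 0.0303). Fgfr4, the receptor through which intestinal FGF15 represses Cyp7a1, stood at 187, 138 and 120.2 against 140.5, 114, 99.6, 87.1 and 99.9 (log2 fold change -0.45, SE 0.20, adjusted p by limma 0.279). Only URI(+/D)Hep 1 lay within the range of the controls. Nr1h4, which encodes FXR and was named after its values were seen, stood at 393, 880.3 and 1532 in the controls and at 1193, 958, 1356, 1262 and 1499 in the other group (log2 fold change 0.61, SE 0.36, adjusted p by limma 0.409). In all, 2 of the 41 other pathway genes tested had ranges that did not overlap, Cyp2a12 and Rxra, against 13.4% of all genes tested.

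**Figure D5:**
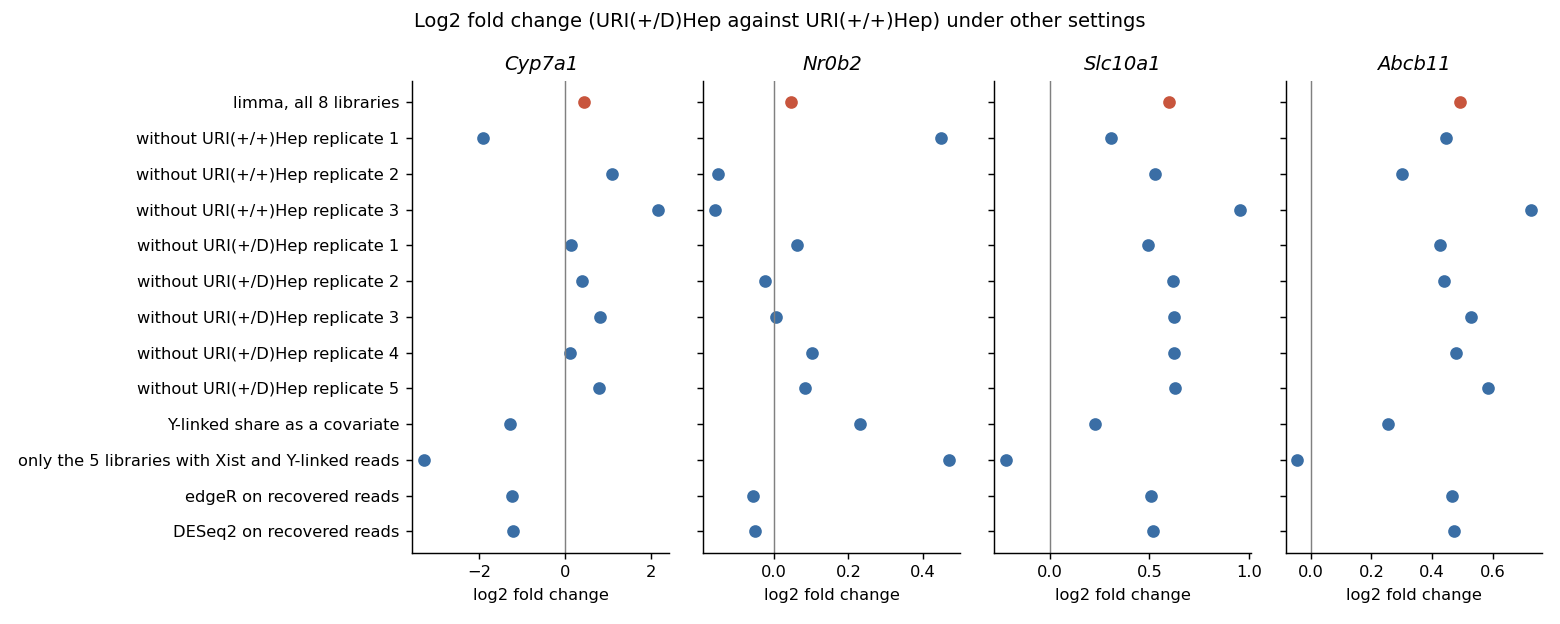
Log2 fold change of Cyp7a1, Nr0b2, Slc10a1 and Abcb11 (URI(+/D)Hep against URI(+/+)Hep) in the fit of all 8 libraries, without each library in turn, and in 4 further fits. Cyp7a1 runs from -3.29 to 2.16 and crosses 0, as does Nr0b2, while Slc10a1 and Abcb11 stay above 0 except in the fit of the 5 libraries with Xist and Y-linked reads (-0.22 and -0.045).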

How the data were processed

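Libraries were made from total RNA with oligo-dT priming, which reads the 3′ ends of transcripts, and carried a molecular identifier of 6 nt, per the labels' protocols. The authors deposited normalized signal, which by its steps holds gene counts scaled by the size factor of each library. Build GRCm39 and the tools bcl2fastq, featureCounts and DESeq2 come from the submitters' processing notes. No source used here gives the aligner, the annotation or the use of the identifiers. Every value was a whole multiple, within a tolerance of 1e-06, of the smallest value above 0 in its library, for 100% of values, and these recovered reads gave the depths and the count tests. In URI(+/D)Hep 5 that smallest value, 0.989, is close to 1 and less certain to stand for 1 read.

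Groups and replicate numbers came from the sample titles. Values were tested as log2(value + 1), which understates changes of low genes, with limma 3.58.1 in R 4.3.3, with a mean-variance trend and p-values adjusted by Benjamini-Hochberg over 13704 genes, those that reached 10 in 3 or more libraries. An adjusted p under 0.05 was called. Nothing says more of how the replicates relate than that they are separate samples, so p-values measure the spread between these samples. The fit was tested on simulated data. The 45 relations between members used exact permutations, and Poisson intervals are at 95%. With group means subtracted the permutations still ran across both groups, so those p-values are approximate. Named are the 10 members, the called or otherwise the 2 genes of smallest p in each of 3 pathway lists, the 3 genes most like Cyp7a1, Cyp8b1 and Nr0b2, and others said to be chosen after their values were seen. Members and lists were chosen with earlier results of these data known. Alternatives were other pseudocounts, filters, scalings and covariates, leaving out libraries, edgeR 4.0.16 and DESeq2 1.42.0 on recovered reads, and, added after seeing the data, edgeR on 7 libraries.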

Additional observations from a re-analysis of the deposited data

Results flagged for a closer look

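In the 5 libraries labelled URI(+/D)Hep, 62 pathway and bile duct genes were looked at for 1 library set apart from the other 4 by Dixon's ratio, and 9 were. Chance sets apart about 1 in 20 such groups. URI(+/D)Hep 5 stood apart for Slc51a at 339, Epcam at 525, Cftr at 283, Krt19 at 65.3 and Krt7 at 21.8 normalized reads, each the highest of its group. It also stood apart for Ch25h at 0.989, which is 1 read against 0 in the other 4 and lies under the level of 3 reads. Slc10a1 was set apart in URI(+/D)Hep 1, at 361 against 253 in the next library, and that library was also the one with Xist and almost no Y-linked reads. URI(+/D)Hep 2 was the lowest for Baat, at 426 against 472 in the next, and for Rxra, at 1054 against 1234.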

How the results depend on the processing

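Under 22 alternatives, 0 of the 10 bile acid genes were called in either direction. Of 346 log2 fold changes of these and the 6 other named pathway genes, 309 kept their direction and side of the threshold, 35 changed sign, none of them called before or after, and 2 became called. The 2 were Cyp2a12 and Rxra in DESeq2, which makes the count of called pathway genes 2 of 41 there against 0 in limma. Of all genes to which DESeq2 gave an adjusted p, 4.97% were called, so the 2 lie near that share. Baat, Abcb4 and the 6 other pathway genes kept their sign in all of the alternatives run.

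Signs changed as follows. Given the Y-linked share as covariate, Cyp7a1 was at -1.29, Cyp8b1 at -0.10, Cyp27a1 at -0.11, Cyp7b1 at -0.20 and Slc27a5 at -0.031. In the 5 libraries with Xist and Y-linked reads they were at -3.29, -1.25, -0.39, -0.32 and -0.10, with Slc10a1 at -0.22 and Abcb11 at -0.045, the lone control being taken to vary as the other libraries do. Without control 1 and URI(+/D)Hep 5, Cyp7a1 was at -1.57, Cyp27a1 at -0.16 and Cyp7b1 at -0.12. Cyp7a1 and Nr0b2 were at -1.23 and -0.057 in edgeR, -1.23 and -0.052 in DESeq2, and -0.998 and -0.019 in edgeR on 7 libraries. Cyp8b1 was at -0.045 with a pseudocount of 0.5 and at -0.11 with quantile normalization. Leaving out each library in turn gave -1.91 to 2.16 for Cyp7a1, -0.78 to 0.76 for Cyp8b1, -0.16 to 0.40 for Cyp27a1, -0.30 to 0.29 for Cyp7b1, -0.11 to 0.13 for Slc27a5 and -0.16 to 0.45 for Nr0b2. Without a change of sign it gave 0.31 to 0.95 for Slc10a1, 0.30 to 0.72 for Abcb11, 0.27 to 0.67 for Abcb4 and -0.18 to -0.04 for Baat. Cyp8b1 missed the filter in 6 alternatives. The cause of these changes was not tested.

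With a block for the replicate number, Cyp8b1 was at -0.62 and Slc27a5 at -0.015, and 0 genes were called lower. Same-numbered libraries did not deviate together (correlations of -0.40, -0.04 and -0.27 over genes), and no control shares the numbers 4 and 5, so the numbers were not taken as pairs.

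Over all genes, limma called 0 higher and 2 lower. The count of higher genes was 1 with a mean of at least 50 and without the 2 libraries lowest in Mki67, and 234 in DESeq2. The count of lower genes was 339 in DESeq2 and 0 with quantile normalization, without the trend, with the Y-linked share, without the 2 libraries lowest in Mki67, in the 5 libraries with Xist and Y-linked reads and in edgeR on 7 libraries. Leaving out each library gave 0 to 10 higher and 0 to 19 lower, the 10 and the 19 without control 3, and 0 lower without any other library. Relations between members that passed adjustment numbered 0, and 2 by an approximate permutation p after subtracting group means.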
